A study of Mus musculus with 2 samples.

Results

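Tuft cells are rare secretory cells of the intestinal epithelium, and 78 of the 3207 epithelial cells kept from the jejunal crypts of 2 miR-375 knockout (375KO) mice carried this name. The members were the cells that the study's own annotation called Tuft, 40 in replicate 1 and 38 in replicate 2. Each replicate was a single-cell RNA-seq library from the jejunal crypts of one male mouse, 12 months old, strain C57BL6/2J as labelled. Both mice carried a whole-body deletion of the microRNA gene miR-375 made with CRISPR/Cas9 in FVB x B62J F1 hybrid embryos, with founders then backcrossed to B6 albino mice. Wild-type libraries were not used here, so every value below describes tuft cells that lack miR-375 and none measures an effect of its loss.

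Tuft cells sense the contents of the gut lumen. They couple receptors of the taste family through G proteins and calcium release to the cation channel Trpm5, and they answer helminths and protists with the alarmin cytokine Il25 and with lipid mediators of the leukotriene and prostaglandin classes. The transcription factor Pou2f3 is required to make them, and Dclk1, a microtubule-associated kinase, is their usual histological marker.

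Tuft cells made up 1.97% of the epithelial cells in replicate 1 (exact binomial 95% interval 1.41 to 2.67%) and 3.23% in replicate 2 (2.30 to 4.41%), a mean of 2.60% ± 0.895 (SD, n = 2). Among cells with at least 2500 genes and at most 10% mitochondrial UMIs the shares were 2.99% (25 tuft cells) and 3.78% (36), so the value of replicate 1 depends on the cell filter. They held 0.945% and 2.55% of the epithelial unique molecular identifiers (UMIs, one per captured RNA molecule). A tuft cell had a median of 8630 UMIs in replicate 1 and 13016.5 in replicate 2, against 16975 and 13405 in enterocytes. The summed tuft profiles therefore rested on 413531 and 559907 UMIs, and no barcode of the kept cells was shared between the libraries (0 barcodes). All kept cells had been called singlets upstream, yet 4 tuft cells of replicate 1 and 1 of replicate 2 carried a doublet score above 0.5. Intervals given here cover counting error only.

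The name was checked against 4 tuft markers. Dclk1 (GRCm38 chr3:55242364-55539068, plus strand) gave 434 UMIs in the tuft cells of replicate 1, of 481 in all epithelial cells, and 448 of 483 in replicate 2. Scaled by the UMI total and given as CPM (UMIs of the gene per 1000000 UMIs), this was 1049.5 (exact Poisson 95% interval 953 to 1153) and 800.1 (728 to 878), or 925 ± 176 (SD, n = 2). Nearly all Dclk1 molecules of the epithelium thus sat in these cells. Trpm5 (chr7:143069153-143094642, minus strand) gave 147 of 194 and 187 of 215 UMIs, at 345 ± 15.2 CPM. Pou2f3 (chr9:43123939-43210369, minus strand) gave 75 of 89 and 128 of 144, at 205 ± 33.4 CPM. Il25 (chr14:54932695-54935837, plus strand) was sparse, at 8 of 9 and 12 of 14 UMIs. The 4 markers were therefore present and largely held by the annotated cells in both mice. Since cells were annotated from their own expression, these levels describe the cells and do not test the annotation.

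Cell by cell, Dclk1 was detected in 38 of 40 and 35 of 38 tuft cells, Trpm5 in 37 and 37, Pou2f3 in 32 and 36, and Il25 in 6 and 9. After each cell was thinned to 5000 UMIs, which left 39 and 38 tuft cells, Dclk1 was detected in 34 and 32, Trpm5 in 33 and 29, Pou2f3 in 21 and 25, and Il25 in 3 and 1. Enterocytes, which should lack Dclk1, had a Dclk1 UMI in 0.537% and 0.262% of cells before thinning. At least 2 of the 4 markers were found in 76 of the 78 tuft cells (97.4%), and the other 2 tuft cells had 1 marker each. Among epithelial cells given another name, 3072 had none of the markers, 40 had 1, and 17 (0.543%) had 2 or 3.

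Gene levels were then set against the other 8 epithelial types within each mouse. UMIs were summed per type, scaled to CPM with trimmed-mean (TMM) factors and compared on a log2 scale with a prior count of 2 over 11588 genes. A gene was called where the difference reached 2-fold in the same direction in both mice; no test was made, because the same genes had placed the cells in their clusters. By this rule 675 genes (5.82%) exceeded the mean of the other types, and 769 (6.64%) were lower. Many of these rest on few molecules. Of the 675, 260 had fewer than 10 tuft UMIs in at least one mouse, and of the 769, 667 had fewer than 10 in both. With at least 50 CPM in the tuft cells of both mice 258 genes were higher, and with at least 50 CPM in the mean of the other types 106 were lower. Without TMM scaling the counts were 1705 higher and 476 lower, so that 78.2% instead of 46.7% of the called genes were higher, and the median difference over all genes moved from -0.08 to 0.50.

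A narrower set of 151 genes (1.3%) exceeded every other type at least 2-fold in both mice, 112 of them with at least 50 CPM. Of the 151, 79 did so by 4-fold or more and 35 by 16-fold or more. The 151 genes together took 3.94% of the tuft UMIs in replicate 1 and 3.89% in replicate 2. In no other epithelial type did they take more than 0.334% in replicate 1 or 0.289% in replicate 2, the highest type in each case being enteroendocrine cells (EEC). Paneth cells had TMM factors of 0.165 and 0.128, which raise their scaled levels, and with them left out 166 genes passed. Without TMM scaling 208 passed. Genes just inside the 2-fold limit against the highest other type were Ehf (log2 difference 1.33 and 1.01), Gga2 (1.49 and 1.02) and Zfhx3 (1.83 and 1.03). Just outside were Csk (0.93 and 1.45), Mocs2 (0.91 and 1.66) and Psd3 (0.90 and 1.06).

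The 20 genes furthest above the next type, among those with at least 50 CPM in both mice, were led by Rgs13, a regulator that shortens G protein signalling. Rgs13 (chr1:144138654-144177372, minus strand) gave 982 of the 1024 epithelial UMIs in replicate 1 and 1510 of 1556 in replicate 2, or 2375 and 2697 CPM. The log2 difference to the next type was 9.54 and 6.08. Alox5ap (chr5:149264767-149288153, plus strand), the partner protein of 5-lipoxygenase, followed with 369 and 750 UMIs and log2 differences of 7.36 and 7.89. The order of these 20 genes was not the same in both mice: Nebl, which encodes an actin-binding nebulin relative, had 7.83 in replicate 1 and 4.38 in replicate 2. Each nevertheless stood more than 16-fold above the next type in both libraries.

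**Figure D1:**
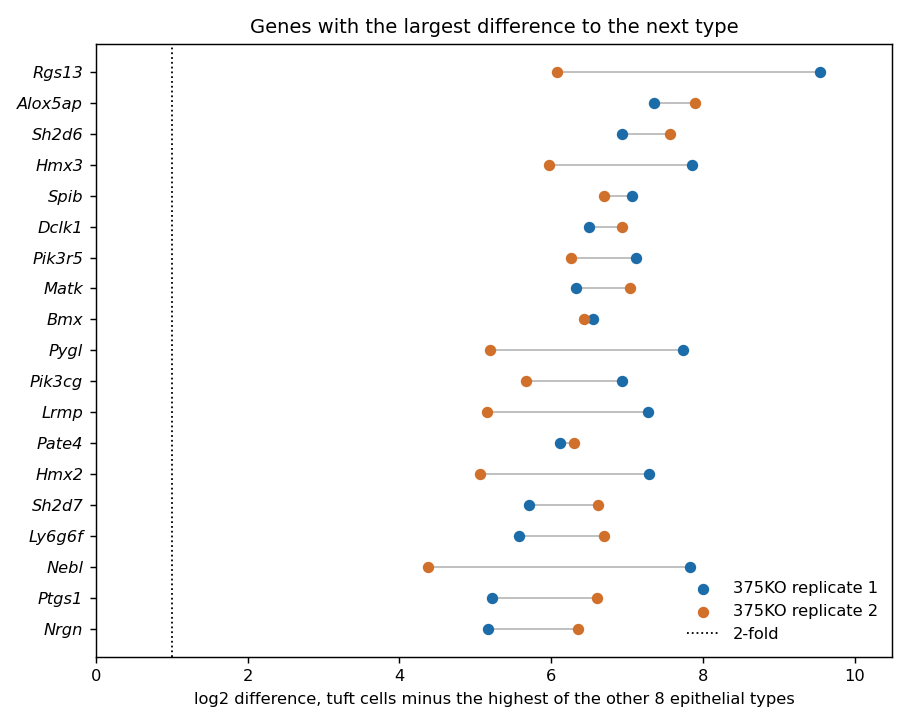
Log2 difference between the tuft level and the highest of the other 8 epithelial types for 19 of the 20 genes with the largest mean difference, one point per 375KO mouse, with the dotted line at 2-fold. All points lie to the right of 4, and Rgs13 reaches 9.54 in replicate 1.

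Several of the 20 genes encode signalling proteins, a grouping made after the values were seen. The Csk-like kinase Matk was at 213 and 196 CPM and the Tec-family kinase Bmx at 111 and 123 CPM. Matk is otherwise best known from blood cells. Both the catalytic and the regulatory subunit of phosphoinositide 3-kinase gamma appeared, with Pik3cg at 145 and 129 CPM and Pik3r5 at 285 and 271 CPM. The SH2-domain adaptors Sh2d6 (665 and 748 CPM) and Sh2d7 (285 and 325 CPM) belonged to the same group. Lrmp, an endoplasmic reticulum protein of lymphoid and taste cells, had the most UMIs of the 20 after Rgs13 over both mice, with 838 and 896 UMIs or 2026 and 1600.3 CPM. Pygl, the liver form of glycogen phosphorylase, was at 370.0 and 205 CPM, and the calmodulin-binding protein neurogranin (Nrgn) at 126 and 223 CPM. The other 2 genes of the 20 with no role given elsewhere here were Pate4, at 55.6 and 89.3 CPM, and the lymphocyte antigen 6 family member Ly6g6f, at 186 and 325 CPM.

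Of the taste transduction list, 5 of the 6 members measured well enough to compare were higher in tuft cells and above every other type, and none was lower. Of all genes, 5.82% were higher, 1.3% above every other type and 6.64% lower. The median log2 difference of the 6 to the mean of the other types was 7.04, where all genes had -0.08. The G protein gamma subunit Gng13 gave 178 and 330 UMIs (93.7% and 87.3% of its epithelial molecules), and Plcb2, the phospholipase that makes the second messenger IP3, gave 56 and 28. The channel downstream, Trpm5, had log2 differences to the mean of 7.67 and 7.44. It is one of the 4 markers used to check the name and is counted among the 5. Plcb2 reached the count limit only through its tuft UMIs. The 2 IP3 receptors on the list differed: Itpr2 had 153 and 106 UMIs and log2 differences of 5.77 and 5.88, whereas Itpr3, the form used by taste buds, had 13 and 24 UMIs and -0.59 and 0.14. Gustducin itself (Gnat3) was detected with 13 of 15 and 4 of 4 UMIs, too few for the comparison, and its usual beta partner Gnb3 with 0 and 1.

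Sensing receptors other than Ffar3 gave few UMIs. Ffar3, a receptor for short-chain fatty acids, was the only one of 7 that entered the comparison. It gave 32 of 55 and 44 of 56 UMIs, so tuft UMIs carried it past the count limit, and stood 1.80 and 1.12 log2 units above the next type. Sucnr1, the receptor for succinate, gave 10 of 15 and 16 of 16 UMIs. The sweet and umami taste receptor subunit Tas1r3 gave 5 and 2, and its partners Tas1r1 and Tas1r2 gave 0 in both mice, where 3 counts correspond to 7.25 and 5.36 CPM. Vmn2r26 gave 0 and 3 UMIs and Adgrg2 gave 1 and 0. Each receptor thus gave fewer UMIs than Gng13 or Trpm5 did.

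Transcription factors linked to the tuft lineage were higher in 7 of 9 cases compared, with 5 above every other type and a median log2 difference of 4.45. Pou2f3, one of the 4 markers used to check the name, is counted among the 7 and the 5. Without their tuft UMIs, Pou2f3, Hmx3, Hmx2 and Spib would not have reached the count limit. Over all genes 5.82% were higher, 6.64% lower and 1.3% above every other type. The homeobox factors Hmx3 (78 of 78 and 40 of 42 UMIs) and Hmx2 (97 of 106 and 196 of 210) and the Ets factor Spib (104 of 123 and 194 of 209) were largely tuft transcripts within the epithelium. Gfi1b, a zinc-finger repressor, gave 17 of 19 and 24 of 24 UMIs but was under the count limit. Runx1 was also above every other type, at 123 and 64.3 CPM. Sox9 and Ascl2 were higher than the mean but did not pass the 2-fold rule against every other type. Sox9, a factor of crypt base cells, had 2.35 and 2.04 log2 units over the mean and 0.45 and 0.23 against the highest other type, which was Paneth cells in both mice. That order depends on the scaling: in plain CPM the next type was stem cells, at 138 and 99.7 CPM, and tuft cells were at 387 and 311 CPM, over 2-fold above it in both. Ascl2, a Wnt target of crypt stem cells, had 3.81 and 3.26 over the mean and 0.56 and 0.73 against stem cells. Nfatc1 and Ahr passed the rule in neither direction. Among 8 factors of other secretory lineages, Gfi1, Neurog3, Neurod1, Pax4 and Nkx2-2 had 0 tuft UMIs in both mice and were called lower. With such zeros placed at 3 counts, the median of that list turned from -2.02 to 0.42, so the depth sets this value.

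Pou2f3 belongs to the POU family, whose octamer motif reads ATGCAAAT, or ATTTGCAT on the opposite strand. Both forms were searched in RefSeq promoters (GRCm38.p6) running from 250 bases before to 50 bases after the start of each gene. Of the 151 genes above every other type, 119 had a promoter in the table and 6 held a match (5.04%): Hpgds, Stox2, Kctd12, 1810046K07Rik, Ly6g6d and Trim40. The share was 1.52% over all 8817 genes compared that had a promoter and 1.74% over all 32851 promoters. None of the 16 promoters found for the 20 leading genes held one. Shown are the promoters of Hpgds, the prostaglandin D synthase described with the eicosanoid enzymes, and of Trim40, a RING-finger protein that gave 15 and 39 tuft UMIs and whose window held 2 matches. Each match is in capitals. The Hpgds promoter covers chr6:65144681-65144980 on the minus strand, with a match 174 bases before the RefSeq start. The GENCODE gene Hpgds (chr6:65117293-65144908) starts further upstream, inside that window, and by its coordinates the match lies within the gene. The Trim40 promoter covers chr17:36890076-36890375 on the minus strand, with its first match 153 bases before the RefSeq start.
Hpgds: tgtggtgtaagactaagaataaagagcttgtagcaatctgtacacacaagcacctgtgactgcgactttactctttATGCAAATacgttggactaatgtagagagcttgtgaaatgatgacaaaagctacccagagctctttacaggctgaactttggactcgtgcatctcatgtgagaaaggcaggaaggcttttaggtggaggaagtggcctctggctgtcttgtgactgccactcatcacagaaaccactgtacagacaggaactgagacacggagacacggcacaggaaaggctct
Trim40: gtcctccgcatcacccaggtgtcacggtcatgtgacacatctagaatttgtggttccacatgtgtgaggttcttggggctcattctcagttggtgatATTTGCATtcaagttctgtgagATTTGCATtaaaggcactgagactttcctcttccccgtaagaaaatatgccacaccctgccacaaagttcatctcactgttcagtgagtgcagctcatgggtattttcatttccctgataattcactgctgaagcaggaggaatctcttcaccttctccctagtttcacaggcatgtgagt
A match describes the letters in the window and is no measurement of binding.

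Enzymes of eicosanoid synthesis, which turn arachidonic acid into lipid mediators, were mostly higher in tuft cells. Of 12 members, 8 were compared, and 6 were higher and above every other type, with a median log2 difference of 6.81. Among all genes, 5.82% were higher and 1.3% above every other type. On the leukotriene arm, the arachidonate-releasing phospholipase Pla2g4a gave 91 and 62 UMIs, 5-lipoxygenase (Alox5) gave 33 and 69, and leukotriene C4 synthase (Ltc4s) gave 304 and 602. Ltc4s had the most UMIs of the group after Alox5ap, at 735 and 1075 CPM. On the prostaglandin arm, cyclooxygenase 1 (Ptgs1) gave 51 and 78 UMIs and the haematopoietic prostaglandin D synthase Hpgds gave 157 and 123, at 379.7 and 219.7 CPM. Cyclooxygenase 2 (Ptgs2), the other D synthase Ptgds, the E synthase Ptges and the thromboxane synthase Tbxas1 had 0 tuft UMIs in both mice. The broadly expressed E synthases Ptges2 and Ptges3 passed in neither direction. Alox5, Ptgs1 and Hpgds reached the count limit only through their tuft UMIs. Transcripts of a full route to leukotriene C4 and to prostaglandin D2 were thus detected in both mice and cyclooxygenase 2 was not detectable at this depth.

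**Figure D2:**
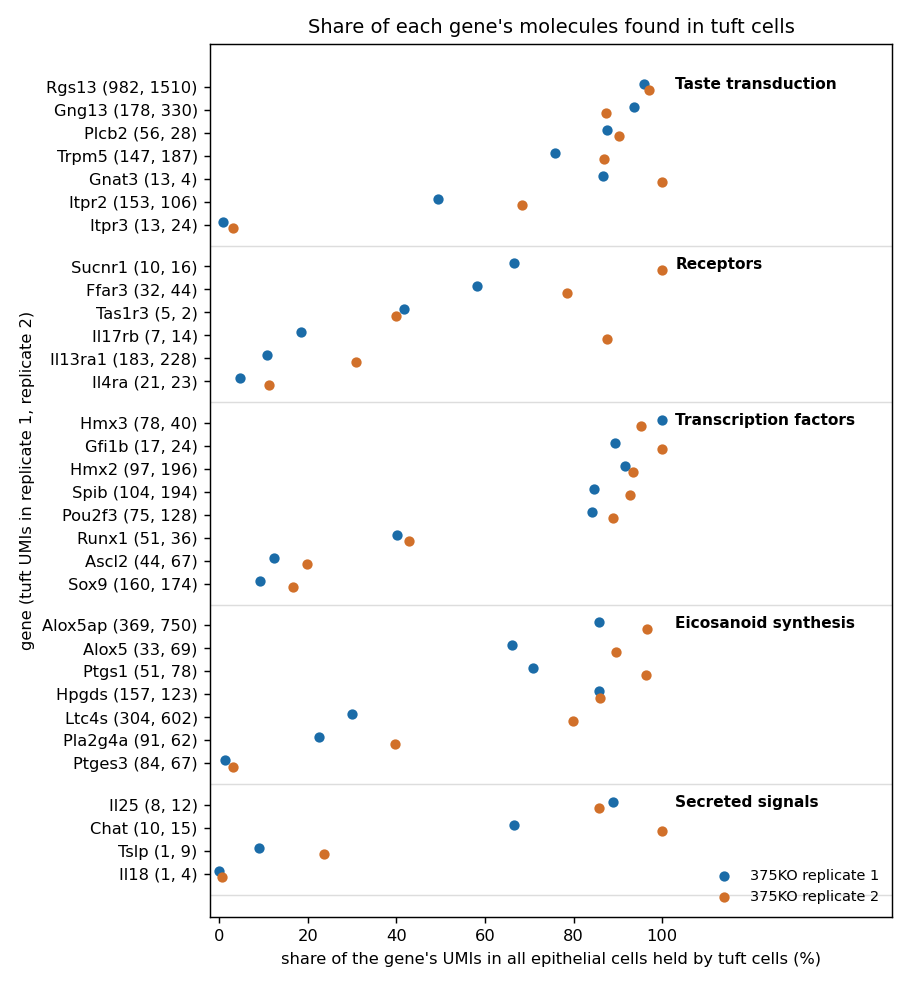
Share of each gene's epithelial UMIs that lay in tuft cells, in percent, for genes grouped by role, with one point per 375KO mouse and the tuft UMIs of replicates 1 and 2 in brackets. Tuft cells are 1.97% and 3.23% of epithelial cells and hold 0.945% and 2.55% of all epithelial UMIs. Rgs13, Hmx3 and Alox5ap lie above 80% in both mice, whereas Itpr3, Ptges3 and Il18 lie near the left edge.

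Secreted signals other than Il25 were sparse. Chat, the enzyme that makes acetylcholine, gave 10 of 15 and 15 of 15 UMIs. The choline and acetylcholine transporters Slc5a7 and Slc18a3 had 0 in both mice, and the esterase Ache had 0 and 1. Of the other alarmins, Tslp gave 1 of 11 and 9 of 38 UMIs and Il33 gave 0 of 272 and 0 of 31. None of the 3 members of this list with enough counts passed the 2-fold rule in either direction. Il25, Chat and Tslp were too rare for levels to be ranked.

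Receptors for type 2 cytokines were clearer. Il13ra1, a subunit shared by the Il13 and Il4 receptors, was at 443 and 407 CPM, with log2 differences to the mean of 3.49 and 3.76. Il4ra had 2.30 and 1.86. Il17rb, the Il25-binding chain, had 3.35 and 5.01 on 7 and 14 UMIs, which carried it past the count limit. These were the 3 of 5 members compared that were higher, next to 5.82% of all genes. The co-receptor Il17ra and the transducer Stat6 (67.7 and 89.3 CPM) passed in neither direction, and the common gamma chain Il2rg had 1 and 0 UMIs. Both a ligand and receptor chains of the type 2 response were therefore read in the same cell type.

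Of 14 genes of the apical cytoskeleton and brush border, 6 were higher and 1 was lower, with a median log2 difference of 0.998. The shares over all genes were 5.82% higher and 6.64% lower. Besides Dclk1, the actin-bundling proteins Avil (248 and 261 UMIs, 533 ± 94.4 CPM) and Espn (311 and 458, 785 ± 46.6 CPM) were higher, as were the keratins Krt8 (1.12 and 1.60) and Krt18 (2.39 and 2.76) and the protocadherin Cdhr5 (1.24 and 2.05). The call for Krt8 was lost under the stricter cell filter and with Paneth cells left out. Krt20, a keratin of villus cells, was lower at -3.05 and -1.74. The villus brush border proteins Vil1 (0.38 and 0.79), Ezr (-0.03 and -0.35) and Myo1a (0.26 and 0.86) passed in neither direction.

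Of a list of 13 genes associated with blood cells, 12 were higher, 11 of them above every other epithelial type, with a median log2 difference of 5.50. The like shares of all genes were 5.82% and 1.3%. The summed level of the 13 was 3095 and 3208 CPM in tuft cells, at most 158 and 176 CPM in another epithelial type, and 3941 and 3420 CPM in the cells annotated as intraepithelial lymphocytes (IEL). Ptprc, which encodes the pan-leukocyte antigen CD45, gave 10 of 43 and 21 of 35 UMIs. Cd300lf, an inhibitory receptor of myeloid cells, gave 17 of 28 and 36 of 41. The Src-family kinase Lyn was at 43.5 and 60.7 CPM, the adaptor Fyb at 764 and 500.1, the small GTPase Rac2 at 145 and 218, and the phosphatases Inpp5d and Ptpn6 at 84.6 and 96.4 and at 351 and 298 CPM. Coro1a, a coronin of leukocytes, was the exception, with 0 and 7 UMIs. The list also held Ptpn18, Ly6g6d, Ly6g6f and Trim40, all above every other epithelial type. Not all members are particular to blood cells: Ptpn18 averaged 42 and 35 CPM over the other epithelial types. Markers of IEL themselves were near 0: the 8 gave 5 and 14 UMIs in all tuft cells of each mouse, against summed levels of 18828 and 10469 CPM in the cells annotated as IEL. The 9 myeloid and mast cell markers gave 0 and 4 tuft UMIs in all. The list of blood-cell genes was compiled with earlier results of these data known, so its count is a description. Ptprc, Cd300lf, Inpp5d, Ly6g6d and Ly6g6f reached the count limit only through their tuft UMIs. With IEL added to the types compared, 129 of the 151 genes remained above every other type.

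A smaller set of genes otherwise linked to neurons gave 3 of 6 members higher, next to 5.82% of all genes. They were Nrep (79 and 134 UMIs), Nradd (10 and 22) and the nucleotide exchange factor Plekhg5 (12 and 27). Tuft cells have been divided elsewhere into a class with neuronal and a class with immune genes. In cells thinned to 5000 UMIs, Nrep and Ptprc occurred together in 3 and 3 cells, Ptprc alone in 2 and 5, Nrep alone in 17 and 18, and neither in 17 and 12. Cd300lf was found with Nrep in 4 and 7 cells and without it in 3 and 5. At this depth the cells did not separate into exclusive sets by these genes.

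Genes of other epithelial types were then read in the tuft cells. Goblet markers summed to 4309 and 4306 CPM, and none of the lists of other types contributed a gene higher in tuft cells apart from 1 of 7 stem markers. The Paneth markers summed to 1105 CPM in replicate 1 and 80.4 CPM in replicate 2, where Paneth cells themselves had 513019 and 406387 CPM. Defa24, a Paneth cell defensin, gave 256 tuft UMIs spread over 34 of 40 cells in replicate 1 and 0 in replicate 2. Zg16, a goblet granule protein, gave 350, of which 325 lay in 1 cell, and 0. Of the 100 genes most abundant in each library, all were seen in the tuft cells of replicate 1, where 0 to 7 had no UMI in the other types. In replicate 2, 13 had 0 tuft UMIs, and 3 to 14 had none in the other types. The tuft zeros of replicate 2 fell on Paneth and goblet granule genes, and the study's methods state that ambient RNA was removed with SoupX. Whether and how far that correction reached each deposited matrix was not tested.

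A few cells carried much of the goblet and enterocyte signal. Tuft cells with at least 100 UMIs of Tff3, Zg16 or Fabp1, a limit set after the values were seen, numbered 1 in replicate 1 and 7 in replicate 2. They held 47.0% and 84.3% of the tuft UMIs of the goblet peptide Tff3, and 98.5% and 100% of those of the secretory chaperone Agr2. Without them the 20 leading genes were still above every other type, and 143 of the 151 remained so. Whether these cells are mixed droplets or intermediate cells was not tested.

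**Figure D3:**
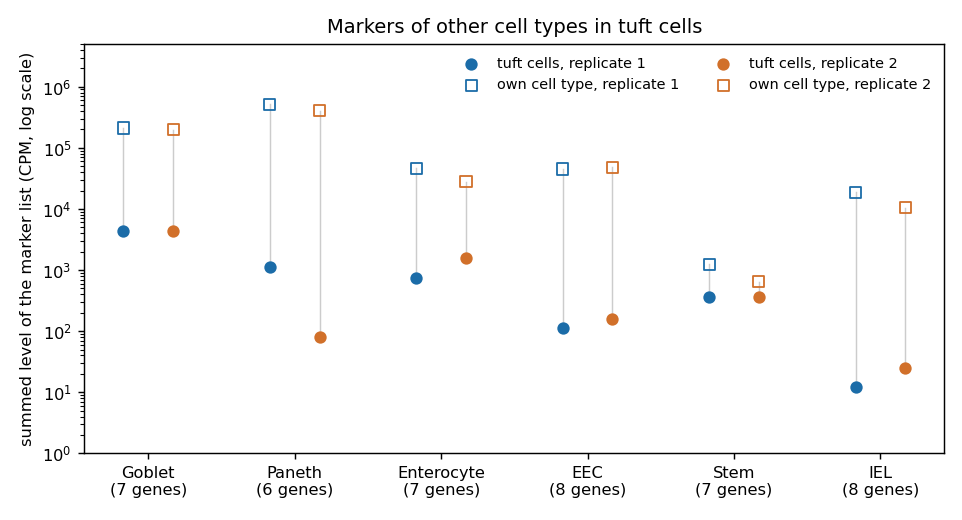
Summed level of the markers of 6 other cell types in CPM on a log scale, in tuft cells (filled circles) and in the cell type that the markers define (open squares), one pair per 375KO mouse. Tuft cells lie below the defining type for each list, and the Paneth list shows the widest gap between the mice, at 1105 and 80.4 CPM.

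At the low end, the 10 genes furthest below the mean of the other types were led by products of other lineages. The enteroendocrine genes Cck, Gip and Chgb had 0 tuft UMIs in both mice, of 8687 and 4928, 28442 and 18327, and 7617 and 1805 in the whole epithelium. The ileal bile acid binding protein Fabp6 likewise had 0, of 53371 and 5990, and so had 2210407C18Rik, of 5659 and 1810. Ranked from the highest of the 9 types, tuft cells were 5 and 6 for Cck and 4 and 5 for Gip. They were 6 and 7 for Chgb and 4 and 7 for Fabp6. For Cck, Gip, Chgb and Fabp6, tuft cells thus shared their 0 with other types. The peptidase Anpep (0 and 4), the actin-severing protein Scin (0 and 2) and the stress factor Nupr1 (3 and 0) were near 0 too. Lyz1, the lysozyme of Paneth cells, gave 110 and 0 UMIs, and the lipase cofactor Clps gave 7 and 0. These last 2 genes did not pass the 2-fold rule, with log2 differences of -0.07 and -6.21 for Lyz1 and -0.69 and -5.42 for Clps, and their place rests on the zeros of replicate 2. Without TMM scaling, Anpep and Nupr1 did not pass either. Hormone transcripts were not wholly missing, since secretin (Sct) gave 45 and 89 tuft UMIs, yet 5 of the 8 EEC markers were lower and none was higher. Of all genes, 6.64% were lower and 5.82% higher. By counting error alone, a count of 0 allows up to 7.25 CPM in replicate 1 and 5.36 CPM in replicate 2. With zeros placed at that limit, 325 genes were lower in tuft cells by the same rule.

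The immediate early genes, which mark recent stimulation or handling, were lower in 3 of 10 cases and higher in none, next to 6.64% and 5.82% of all genes, with a median of -0.91. That is relative to a mean of unlike types. The summed level was 542 and 477 CPM in tuft cells, 2836 and 2307 in EEC and 3113 and 1828 in goblet cells. Stem cells had 324 and 410 CPM and TA cells 391 and 507, so tuft cells were not the lowest type. Fos was at -2.21 and -1.50 log2 units, Egr1 at -2.82 and -1.87, and Dusp1 at -3.38 and -1.99. The call for Fos was lost without TMM scaling. Stem cell markers were split, with 1 of 7 higher (Ascl2) and 1 lower (Olfm4, not called in thinned cells). Olfm4, the abundant stem cell glycoprotein, gave 1 and 0 tuft UMIs (-2.01 and -2.11), and the stem cell receptor Lgr5 gave 6 and 7 (0.56 and 1.67).

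Mitosis genes divided the tuft cells sharply. Summed over Mki67, Top2a, Cdk1, Birc5 and Ccnb1, 3 of 40 tuft cells in replicate 1 (7.50%, 95% interval 1.57 to 20.4) had 48 to 83 UMIs, and 8 of 38 in replicate 2 (21.1%, 9.55 to 37.3) had 10 to 32. No other tuft cell had more than 2. The 10-UMI limit between them was set after the values were seen. In cells thinned to 5000 UMIs, 7.69% and 7.89% of tuft cells had at least 5 such UMIs, against 64.4% and 51.1% of transit-amplifying (TA) cells, 50.6% and 41.7% of goblet progenitors and 4.41% and 1.71% of stem cells. The limits differ before and after thinning, so these shares are not a test of depth, and the intervals of the mice before thinning overlap.

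The cells with many mitosis UMIs carried tuft genes at lower CPM, a level relative to their UMI totals. Rgs13 was at 911 and 746 CPM in them and at 2855 and 3539 CPM in the other tuft cells. Dclk1 was at 587 and 545 against 1201 and 910.3 CPM, and Pou2f3 at 49.0 and 82.9 against 225 and 291 CPM. All these genes were nonetheless present in them, at CPM levels above those of any other epithelial type. In single cells, Rgs13 did not exceed 1614 and 1386 CPM among the cells with mitosis UMIs, and 31 of 37 and 26 of 30 of the other tuft cells lay above those values. These cells were also deeper, with a median of 30906 and 21592.5 UMIs against 8330 and 12662, and their median doublet score was 0.346 and 0.0290 against 0.0572 and 0.00383. As plain UMIs, Rgs13 gave 49, 21 and 23 in the 3 cells of replicate 1, where the other tuft cells had 0 to 49. In the 8 cells of replicate 2 it gave 8 to 30, where the others had 8 to 114. The deepest tuft cells of replicate 2, with 25531 and 26413 UMIs, had 2 and 0 mitosis UMIs. Their Rgs13 was low too, at 1175 and 871 CPM. The parts of depth and of doublets in this pattern were not tested.

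**Figure D4:**
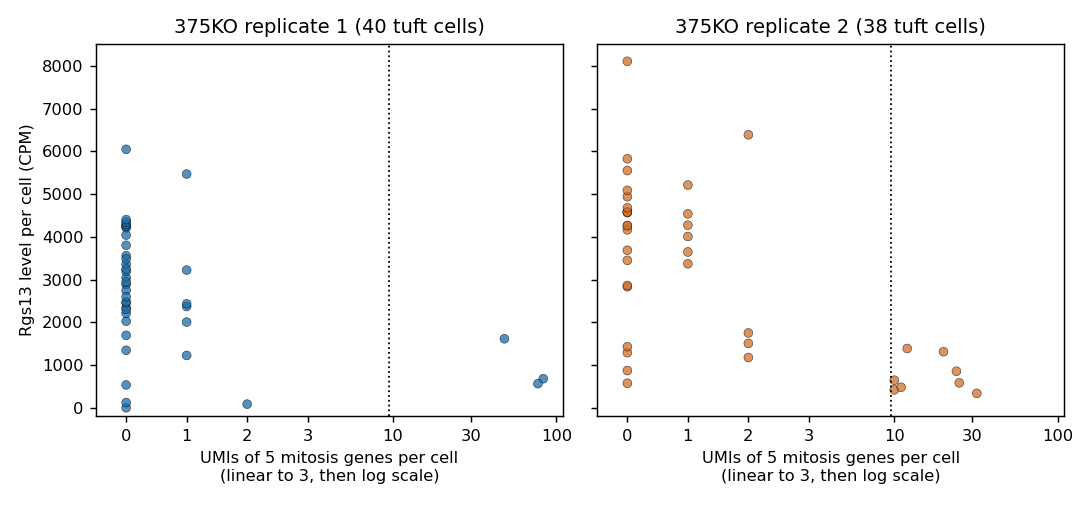
Rgs13 level in each tuft cell in CPM against its UMIs of 5 mitosis genes (linear to 3, then a log scale), with one panel per 375KO mouse and the dotted line at 10 UMIs. The 3 and 8 cells to the right of the line lie at or below 1614 and 1386 CPM, and most other tuft cells lie above that.

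Leaving these cells out moved 1 named gene across 0. Cdk1, the mitotic kinase, was the only one of 12 cell cycle genes called higher in tuft cells (1.67 and 1.42), and without the 3 and 8 cells its mean log2 difference was -0.91. The count of genes lower in tuft cells went from 769 to 1376, and 145 of the 151 genes above every other type remained so. The call for Cdk1 thus rests on the few cells with mitosis UMIs.

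The 2 mice were compared within tuft cells over the 3341 genes with at least 50 CPM in either. At least 2-fold apart were 475 genes (14.2%), 209 toward replicate 1 (6.26%) and 266 toward replicate 2 (7.96%). As both mice share a genotype, this is the spread between animals and libraries. In replicate 1 the widest ratios were for Zg16, Defa24, Lyz1, Gm15284 and Itln1, Paneth and goblet granule genes with 0 tuft UMIs in replicate 2. In replicate 2 they were for the chemokine Ccl9, with 33 UMIs of which 28 lay in 1 cell, and for Rps18 (42 and 2586 UMIs), Gm8797, Rpl23a-ps3 and Gm8730 (39 and 1037). Rps18 differed as much in the other types, where replicate 1 minus replicate 2 was -6.13 log2 units. The ribosomal pseudogenes and the defensins have near-identical copies whose reads can be divided between them, so their values are uncertain. Of the 209 and 266 genes, 68 and 99 were also at least 2-fold apart, in the same direction, in the mean of the other types.

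Tuft profiles of the mice nevertheless resembled each other more than either resembled another type. Over the 11588 genes, which are not independent replicates, the Spearman correlation between the tuft sums was 0.893. Against other types of the same mouse it ran from 0.725 to 0.838. The nearest type was the goblet progenitor in replicate 1 (0.838) and TA cells in replicate 2 (0.834), closely followed there by the goblet progenitor (0.833). Tuft sums share a library with the latter and not with each other.

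Lastly, the genes that the study followed downstream of miR-375 were read in tuft cells. Zfp36l2, an RNA-binding protein that promotes decay of AU-rich transcripts, gave 34 and 34 UMIs, or 82.2 (56.9 to 115) and 60.7 (42.1 to 84.9) CPM. Its log2 difference to the mean of the other types was -0.57 and -0.95, within the 2-fold limit in both mice. Arl4c, a small GTPase, gave 2 and 0 tuft UMIs. Of 119 candidate miR-375 targets taken from the study, 97 could be compared, and 6 were higher (6.19%) and 6 lower (6.19%) in tuft cells, next to 5.82% and 6.64% of all genes. The median log2 difference of the 97 was 0.00, against -0.08 for all genes. The highest was Zdhhc17, a palmitoyltransferase, at 2.58 and 2.13, followed by the Polycomb cofactor Jarid2 at 2.10 and 2.09. The lowest was Fndc3b at -4.65 and -2.21, on 0 and 1 tuft UMIs. As a group, the candidates lay where other genes did in these knockout tuft cells, and with no wild-type library used here their response to miR-375 was not measured.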

How the data were processed

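The authors deposited UMI counts per gene and cell barcode for each library, and a count table of the kept cells with their mouse, cluster name, UMI count, gene count and percent of mitochondrial UMIs. They also deposited a doublet score for each barcode. The study's methods state that SoupX removed ambient RNA. The submitters' processing notes name Cell Ranger 3.0.1 and Seurat 3.2.1. Corrected counts from sctransform were not used, nor were 2937 columns and 6059 doublet entries of other samples.

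All 3275 kept cells were matched to their barcodes through the order of the columns in the count table. Their UMI and gene totals in that table equalled those in the annotation. Cell types were the study's annotation. The libraries held 7665 and 1251 barcodes, of which 2082 and 1193 were kept, with 44017234 and 22163354 UMIs. UMIs were summed over the cells of each of 9 epithelial types in each mouse. Genes with at least 50 UMIs over the 18 sums were kept, 11588 of 27998. They were scaled by TMM in edgeR 4.0.16 (R 4.3.3) and set to log2 CPM with a prior count of 2. The tuft value was compared with the mean and with the highest of the other 8 types in each mouse, and a call needed a 2-fold difference in both. The steps were run on simulated data in which all types shared a mean profile, apart from changes planted in tuft cells. That run could not test the scaling between types of unlike composition. No p-value was computed, because the cells were clustered on these genes and there was 1 group of 2 mice. Intervals are exact, at 95%, from scipy 1.17.1, and a count of 0 was given a limit of 3 counts.

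The members and gene lists were chosen with earlier results of these data known. Named genes were the 4 markers, the 20 genes furthest above the next type and the 10 furthest below the mean (each with at least 50 CPM), the members of the role lists, those of other lists that were called or that define another type, the 5 genes with the widest ratio in each mouse, the 5 highest and 5 lowest candidate targets, and Zfp36l2 and Arl4c. A gene among these is not reported here. Others named at a limit or for a promoter were chosen after their values were seen. Alternatives changed the scaling (DESeq2 1.42.0 size factors or none), the filter, the prior count (0.5), the depth (5000 UMIs per cell), the cell filter (at least 2500 genes and at most 10% mitochondrial UMIs), the types compared and the mice. Leaving out tuft cells high in other types' genes or in mitosis genes was added after seeing the data. Coordinates are from GENCODE and promoters from RefSeq, both on the mouse GRCm38 build.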

Additional observations from a re-analysis of the deposited data

How the results depend on the processing

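Directions of the 88 named genes that were called held under every alternative run, where they could be compared, apart from Cdk1, which reversed to -0.91 without tuft cells high in mitosis genes. Between 73 and 88 of these calls were kept. Losses among genes given values above were Krt8 (stricter cell filter, Paneth cells left out), Nupr1 (those and no scaling), Anpep and Fos (no scaling), and Olfm4 and Cdk1 (thinned cells). Of the 20 leading genes, 19 or 20 remained above every other type. In the runs with a single mouse these outcomes were nearly fixed in advance, because calls and leading genes had been chosen on both mice. With no scaling beyond CPM, 1705 genes were higher, 476 were lower and the candidate target median was 0.58. The candidate target median, 0.00 as reported, was 0.059 with DESeq2 size factors, -0.081 with no filter on low counts, 0.055 with cells thinned to 5000 UMIs, -0.052 with Paneth cells left out and -0.12 without cells high in mitosis genes, where 1376 genes were lower. The median of all genes moved as well. In the same order from DESeq2 size factors on, it was -0.034, -0.094, -0.0089, -0.091 and -0.17. With no scaling it was 0.50, and with a single mouse -0.094 to 0.026. With no filter, 239 genes were above every other type, and with thinned cells 795 differed between the mice. With a single mouse, 1022 to 1133 genes were higher, 1110 to 2023 lower and 182 to 187 above every other type, the candidate target median was -0.013 to -0.0041 and the tuft share was 1.97 to 3.23%. Calls on 1 mouse need no second mouse to pass, and fewer cells leave more genes at 0; the cause of the other shifts was not tested. Depth limits the rare genes: 78 cells cannot rank receptors or cytokines with under 20 UMIs, and 361 of the 769 genes called lower had 0 tuft UMIs in both mice. No paired analysis was possible because the labels give a single group, so no groups share replicate numbers; cell types were compared within each mouse, with no test.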

Other observations

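The 17 epithelial cells annotated as another type that carried at least 2 of the 4 tuft markers were spread over 6 names: 7 enterocytes, 6 TA cells and 1 each of EEC, goblet cells, goblet progenitors and secretory progenitors. Their median depth was 23261 UMIs, and their doublet score had a median of 0.0940 and a highest value of 0.759. No cell annotated as IEL carried any of the 4 markers. The part of doublets in these cells was not tested.

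Trim40, Ly6g6d and 1810046K07Rik each held the octamer at 2 places in the promoter window. The Ly6g6d window (chr17:35081190-35081489) lies inside the GENCODE gene Ly6g6f (chr17:35080480-35085610) and outside the GENCODE gene Ly6g6d (chr17:35071443-35078065), so the assignment of that match to a gene is uncertain. Ly6g6d gave 31 and 115 tuft UMIs.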
